A study of Mus musculus with 4 samples.

Results

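The heat shock proteins described here are 10 genes of the mouse, taken by name from the 55487 genes that the count tables hold. They are Hspa1a, Hspa1b, Dnajb1, Hspa8, Hsp90aa1, Hsp90ab1, Hspb1, Hsph1, Hspd1 and Hspe1, and each symbol matched 1 row of the tables. Their UMIs (unique molecular identifiers, which count captured RNA molecules) were read by library and by cell class. The rule goes by name and uses no measured value, but the genes were chosen with earlier results of these data known. In the tables' Ensembl identifiers they are ENSMUSG00000091971.3 (Hspa1a), ENSMUSG00000090877.3 (Hspa1b), ENSMUSG00000005483.10 (Dnajb1), ENSMUSG00000015656.17 (Hspa8), ENSMUSG00000021270.13 (Hsp90aa1), ENSMUSG00000023944.14 (Hsp90ab1), ENSMUSG00000004951.10 (Hspb1), ENSMUSG00000029657.15 (Hsph1), ENSMUSG00000025980.14 (Hspd1) and ENSMUSG00000073676.4 (Hspe1).

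The 4 single-cell RNA sequencing libraries came from brains of mice of both sexes, namely 2 libraries of young and 2 of old mice, and at either age 1 was labelled WT Cre and 1 EC-K4KO. Where 4 values follow each other below, both young libraries come first, and within each age WT Cre comes before EC-K4KO. All of these mice carried the Cdh5-Cre driver, a tamoxifen-inducible Cre recombinase under an endothelial promoter. The EC-K4KO mice also carried a floxed Klf4 gene that Cre is meant to delete in endothelial cells, whereas the WT Cre littermates carried Cre alone. The brains were dissociated and endothelial cells were enriched by sorting or by endothelial markers before loading. The labels give age only as young or old and do not say how many mice a library holds.

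Klf4 was the targeted gene, so its counts were looked at first. Among endothelial-like cells it was counted at 1679 and 3265 CPM in the young libraries and at 2088 and 3259 CPM in the old ones, where CPM is the gene's UMIs scaled to a common total of UMIs of the class in that library. Klf4 was thus higher in both libraries labelled EC-K4KO than in both WT Cre libraries. Counts per gene do not tell reads of a deleted part from the other reads of the gene, so these values do not settle the genotypes. Every difference below is one between the libraries as labelled.

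Heat shock proteins are molecular chaperones, proteins that hold or refold other proteins. The Hsp70 proteins bind exposed hydrophobic stretches in a cycle driven by ATP, J-domain proteins deliver clients to them, and nucleotide exchange factors reset them. The Hsp90 proteins then finish the folding of many kinases and receptors, small heat shock proteins hold unfolded clients without ATP, and the chaperonins of the mitochondrion fold imported proteins in a closed chamber. Heat, oxidants and damaged proteins release the transcription factor HSF1, which binds inverted repeats of the letters GAA upstream of many of these genes. Tissue dissociation is also known to raise several of them, together with the immediate early genes.

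The promoters show how the members differ in that repeat. RefSeq promoter windows of the GRCm38.p6 assembly, each reaching from 250 bases before to 50 bases after an annotated start, were found for 7 of the 10 members (10 windows). The 5 windows below show the near-identical copies Hspa1a and Hspa1b and, beside their 1 pair of repeat units, windows that hold 2 or 3 pairs. They are written 5′ to 3′ on the strand of the gene, and capitals mark an inverted pair of units, GAANNTTC or TTCNNGAA.
Hspa1a, chr17:34972107-34972406, minus strand: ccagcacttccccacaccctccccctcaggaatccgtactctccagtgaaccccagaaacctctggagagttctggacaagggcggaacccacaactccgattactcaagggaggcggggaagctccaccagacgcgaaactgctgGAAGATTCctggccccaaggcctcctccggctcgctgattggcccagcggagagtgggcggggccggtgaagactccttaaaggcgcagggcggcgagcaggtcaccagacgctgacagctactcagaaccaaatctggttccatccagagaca
Hspa1b, chr17:34959189-34959488, minus strand: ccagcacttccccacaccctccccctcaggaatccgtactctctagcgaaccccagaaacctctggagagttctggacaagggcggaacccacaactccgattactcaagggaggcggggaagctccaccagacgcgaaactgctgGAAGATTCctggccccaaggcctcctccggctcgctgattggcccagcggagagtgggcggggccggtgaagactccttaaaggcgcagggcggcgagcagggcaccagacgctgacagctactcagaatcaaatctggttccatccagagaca
Hspb1, chr5:135887669-135887968, plus strand: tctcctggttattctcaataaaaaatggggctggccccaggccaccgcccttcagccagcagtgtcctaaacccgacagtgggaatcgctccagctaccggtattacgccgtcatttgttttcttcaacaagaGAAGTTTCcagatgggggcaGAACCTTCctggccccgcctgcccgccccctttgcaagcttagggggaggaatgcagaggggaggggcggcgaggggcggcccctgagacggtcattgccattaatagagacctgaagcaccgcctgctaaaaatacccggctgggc
Hsph1, chr5:149636287-149636586, minus strand: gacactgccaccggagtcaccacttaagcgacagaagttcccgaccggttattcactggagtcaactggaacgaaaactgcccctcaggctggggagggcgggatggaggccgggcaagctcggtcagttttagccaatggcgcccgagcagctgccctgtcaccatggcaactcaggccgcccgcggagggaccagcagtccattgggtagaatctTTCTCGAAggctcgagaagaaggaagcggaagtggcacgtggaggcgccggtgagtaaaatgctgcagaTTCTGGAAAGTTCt
Hspe1, chr1:55087898-55088197, plus strand: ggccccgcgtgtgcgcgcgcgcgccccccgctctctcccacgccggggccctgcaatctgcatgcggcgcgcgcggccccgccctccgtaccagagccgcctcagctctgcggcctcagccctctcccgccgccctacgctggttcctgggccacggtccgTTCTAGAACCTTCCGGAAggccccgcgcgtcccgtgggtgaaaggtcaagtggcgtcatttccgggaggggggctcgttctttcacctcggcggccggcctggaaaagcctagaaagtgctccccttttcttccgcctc

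The Hspa1a and Hspa1b windows were the same at 296 of 300 bases. They differed as C44T, T47C, T249G and C276T, with the Hspa1a base first and positions counted from 1 at the 5′ end of the window. Each held 1 pair, GAAGATTC, which began 104 bases before the start. Hspb1 held 2 pairs, which began 117 and 97 bases before the start. Hsph1 held 3 pairs, of which 2 overlapped after the start by sharing a unit, which makes a run of 3 units. In the Hspe1 window 3 overlapping pairs began 89, 84 and 79 bases before the start. Hspd1 and Hspe1 are neighbours on opposite strands of chromosome 1, and one Hspd1 window shared 285 bases with the Hspe1 window and so held the same 3 pairs, while the other Hspd1 window held none. The 2 windows of Dnajb1 held none. Among 32817 distinct promoter windows of this length, GAANNTTC was in 7.859%, TTCNNGAA in 8.514% and either of them in 15.05%, while 1.953% held 2 or more pairs and 0.6033% held a run of 3 units. These are matches of letters on both strands, and binding was not measured in these libraries.

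After filtering, 20737 cells were kept, between 4146 and 6555 a library, and they fell into 34 clusters. Classes were named from marker genes that do not include the members, and these names are rebuilt ones, so each carries "-like". The study counted fewer cells, with more in its old than in its young libraries, so the cells used here are not its own set. As a second way to name them, each cell was assigned by the share of each class's markers with a UMI, and 6281 cells were left out because a second class had over 50% of the share of the first. Young EC-K4KO stood apart here. It kept 1733 of 3340 endothelial-like, 376 of 586 microglia-like, 547 of 1055 smooth muscle-like and 132 of 285 pericyte-like cells, whereas young WT Cre kept 2301 of 2741 endothelial-like cells, old WT Cre 1959 of 2148 and old EC-K4KO 1743 of 1878. There were 2741 and 3340 endothelial-like cells in the young and 2148 and 1878 in the old libraries. They were 38.8 to 61.0% of the kept cells of a library, so much of each library was not endothelial-like despite the enrichment. The variable genes used for clustering held 0 of the members. All 10 endothelial markers were detected in every endothelial-like sum, at 20359 to 23632 CPM together. Their median depth was 6250, 9680, 4598 and 3710.5 UMIs a cell in the same order, and was lower in both old libraries. The young libraries shared 42 cell barcodes, against 7 to 15 for the other pairs of libraries.

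Of the heat shock genes, 8 were higher in endothelial-like cells of both old libraries than of both young ones, and together the members took up a larger part of the RNA. They made up 0.701% of endothelial-like UMIs in each young library and 1.01% in each old one. The libraries of the same age lay close together and the ages were apart. Of 8433 genes at 10 CPM or more, 15.2% were higher in both old libraries and 57.5% were lower in both.

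**Figure D1:**
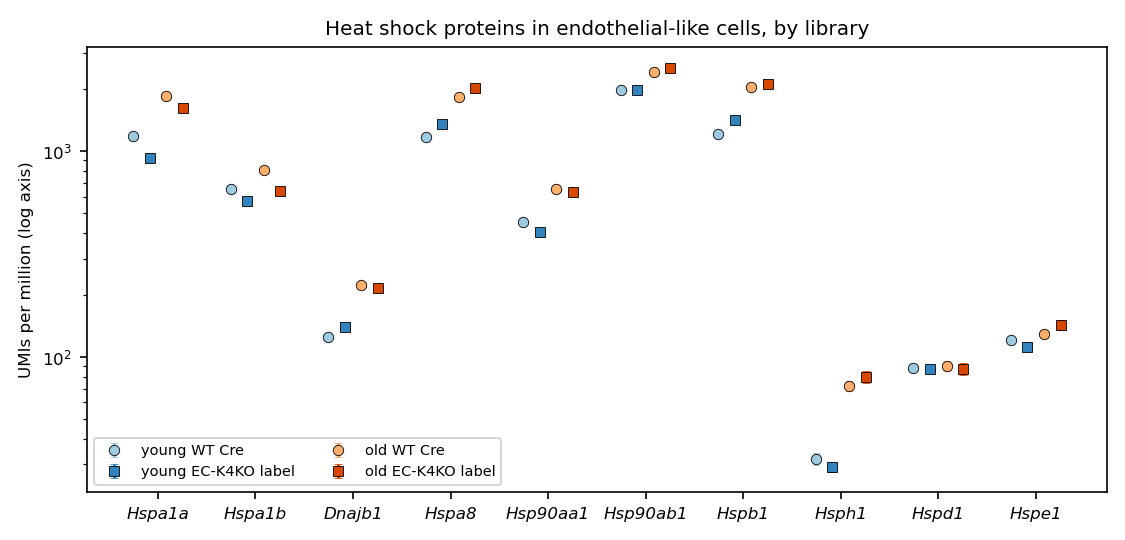
CPM of each of the 10 members in endothelial-like cells of the 4 libraries (log axis), with exact Poisson 95% intervals that are mostly smaller than the points. The old libraries sit above the young ones for 8 members, while Hspa1b and Hspd1 overlap between ages, and Hsph1 shows the widest gap, from 29.1 and 32.0 to 72.1 and 79.8 CPM.

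Age was tested with edgeR's quasi-likelihood test on UMIs summed per library, in a model of age and genotype label over the 4 sums. It called 9 of the 10 members higher in the old libraries and none lower at a Benjamini-Hochberg adjusted p under 0.05, where 21% of 14823 genes tested were called, 12.5% as higher and 8.47% as lower. The median log2 change of the members was 0.75, and that of all genes tested was −0.02. This model leaves 1 residual degree of freedom and takes most of its spread from other genes (a prior of 9.33 degrees of freedom), and its p-values measure the spread between these libraries only, each of which is also its own preparation. DESeq2 called 8 of the members (6.92% of genes, 5.58% as higher) and scaling by library totals 7 (30.4% of genes, 8.12% as higher). Scaling by totals turned the split of all called genes from 1857 higher and 1256 lower to 1203 higher and 3305 lower, and shifted the median of all genes to −0.17.

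Among the stress-inducible Hsp70 genes, Hspa1a was counted at 1182 and 924 CPM in the young libraries and at 1857 and 1619 CPM in the old ones. Both old values lay above both young values. Its log2 change with age was 0.88 ± 0.09 (SE, 2 libraries against 2, edgeR adjusted p = 1.3e-04). Hspa1b, which encodes a nearly identical protein, was at 654 and 573 CPM when young and 811 and 636 CPM when old, so the old EC-K4KO value fell between the young ones. Its change was 0.38 ± 0.09 (edgeR adjusted p = 0.0139), and it missed the threshold when sums were scaled by library totals (adjusted p = 0.0532). Reads that fit both copies cannot be assigned to one of them, so the split between Hspa1a and Hspa1b is uncertain.

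Hspa8 encodes the constitutive Hsp70, which folds new proteins and uncoats clathrin vesicles. It was at 1173 and 1354 CPM in the young and 1829 and 2033 CPM in the old libraries, with a log2 change of 0.76 ± 0.09 (edgeR adjusted p = 3.3e-04). The groups did not overlap. Dnajb1, the J-domain partner of the inducible Hsp70, was at 125 and 140 CPM when young and 222 and 216 CPM when old. It changed by 0.88 ± 0.08 (edgeR adjusted p = 6.1e-05), with the values of each age close to each other.

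Hsph1 (Hsp110), a nucleotide exchange factor that helps Hsp70 pull aggregates apart, had the largest change of the members. It was counted at 32.0 CPM (95% Poisson interval 29.8 to 34.3, from 799 UMIs) in young WT Cre and 29.1 CPM in young EC-K4KO, and at 72.1 CPM (67.8 to 76.6) and 79.8 CPM (74.5 to 85.4, from 832 UMIs) in the old libraries. Each old library was above 2 times each young one. The log2 change was 1.47 ± 0.09 (edgeR adjusted p = 3.4e-06), and over the 7 alternatives it ran from 1.31 to 1.53 with adjusted p-values from 3.3e-49 to 4.9e-04.

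Both genes of the cytosolic Hsp90 pair had smaller changes than Hsph1. Hsp90aa1, the stress-inducible form, was at 452 and 402 CPM when young and 651 and 632 CPM when old, a log2 change of 0.74 ± 0.08 (edgeR adjusted p = 2.1e-04). For Hsp90ab1, the constitutive form, the levels were 1974 and 1972 CPM when young and 2414 and 2521 CPM when old, with a change of 0.47 ± 0.10 (edgeR adjusted p = 0.00675). In both genes the ages did not overlap. Hspb1 (Hsp27), a small heat shock protein that also binds actin filaments, was at 1210 and 1416 CPM when young and 2057 and 2127 CPM when old. Its change was 0.83 ± 0.10 (edgeR adjusted p = 2.9e-04).

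The mitochondrial pair, the chaperonin Hspd1 (Hsp60) and its lid Hspe1 (Hsp10), stood at the low end. Hspd1 was at 88.7, 87.1, 90.4 and 87.1 CPM, with the ages overlapping, and its log2 change of 0.16 ± 0.07 did not pass (edgeR adjusted p = 0.135). Hspe1 was at 121 and 111 CPM when young and 129 and 143 CPM when old, with a change of 0.37 ± 0.08 (edgeR adjusted p = 0.00996). That call did not hold with library totals (adjusted p = 0.0683) or with DESeq2. The pseudogene Hspd1-ps3 held 32 UMIs in endothelial-like cells of all libraries, beside 8116 for Hspd1.

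Because depth differed between libraries, shares of endothelial-like cells with a UMI were compared after thinning each cell to 1000 UMIs. Hsph1 had a UMI in 3.06% (exact Clopper-Pearson 95% interval 2.45 to 3.78) and 2.63% of cells in the young libraries and in 6.05% (5.08 to 7.15) and 5.59% of cells in the old ones. Unthinned, these shares were 19.7%, 23.6%, 27.6% and 25.6%. For Hspa1a the thinned shares were 47.5%, 43.4%, 56.1% and 53.7%, and unthinned 74.2%, 79.7%, 80.0% and 76.7%. The old shares lay above the young ones in both genes once depth was equal, whereas the unthinned Hspa1a shares of young and old libraries overlapped. Thinned shares also overlapped between ages for Hspa1b (35.8% and 34.1% when young, 39.0% and 34.9% when old), Hspd1 (8.43% and 8.38%, 8.19% and 9.42%) and Hspe1 (11.0% and 9.97%, 10.8% and 12.7%). In astrocyte-like cells, where Hspa1a was low, 1.18 to 1.84% of thinned cells had a UMI of Hspa1a (median depth 3758.5 to 7813.5 UMIs). The intervals cover counting error only.

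The old libraries also differed in other respects that move with the members. The summed level of the 15 immediate early and dissociation genes in endothelial-like cells was 15043 and 20451 CPM in the young libraries and 26200 and 23884 CPM in the old ones, and 8 of the 15 were called higher with age and none lower. The largest of these changes were in Ier3 (2.09), Junb (0.99) and Fosb (0.89). Barcodes above 10% mitochondrial UMIs were 10.6% and 14.4% in the young and 16.3% and 16.1% in the old libraries. At a limit of 5% mitochondrial UMIs, 9 members were still called higher (12.6% of 14499 genes), as they were with classes assigned cell by cell (9.9% of 14204 genes). Markers of erythroid cells summed to 402 and 697 CPM when young and 638 and 1039 CPM when old, and those of microglia to 52.3 to 56.7 CPM. Several lists were apart by age. Smooth muscle markers summed to 139 and 191 CPM when young and 103 and 114 CPM when old, and pericyte markers to 107 and 113 CPM when young and 87.8 and 35.4 CPM when old. Neutrophil markers summed to 7.16 and 7.65 CPM when young and 19.3 and 181 CPM when old, and border macrophage markers to 10.7 and 14.1 CPM when young and 24.8 and 22.2 CPM when old. Choroid plexus markers went from 74.7 and 16.1 to 293 and 135 CPM, while the endothelial markers were lower when old (21164 and 20359 CPM) than when young (23632 and 23233 CPM). The part of any of these in the change of the members was not tested.

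The endothelial-like class was also made of different clusters at the 2 ages. Of the capillary-like clusters, the 2195 cells of one were 14.5% from old libraries and the 1898 cells of another were 81.7%. The second was at 2208 CPM of Hspa8, 292 CPM of Dnajb1 and 58.3 CPM of Hsph1, against 1024, 73.4 and 23.2 CPM in the first. The cluster levels were not in the order of the share of old cells. A capillary-like cluster of 899 cells that was 8.01% old held 1711, 225 and 40.9 CPM of these genes. Another of 1407 cells that was 52.1% old held 1080, 85.0 and 32.0 CPM. These clusters were made from the same cells, so their levels are a description with no test. Split by vessel zone, the old libraries were above the young for 9 members in arterial-like, all 10 in capillary-like and 8 in venous-like cells, where 15.1%, 14.1% and 18.3% of all genes at 10 CPM or more were so. Hspd1 in arterial-like cells was lower in both old libraries, as were 50.4% of the 8365 genes there, at 95.3 and 96.1 CPM when young and 87.1 and 86.4 CPM when old. Venous-like cells were 1.20% of the class in young WT Cre (33 cells) and 8.41% in old EC-K4KO (158 cells), and more numerous in both old than in both young libraries. In a fit on capillary-like cells only, which was added after the data had been seen, all 10 members were called higher (17.1% of 13603 genes), Hspd1 among them at 0.25 (edgeR adjusted p = 0.0448).

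**Figure D2:**
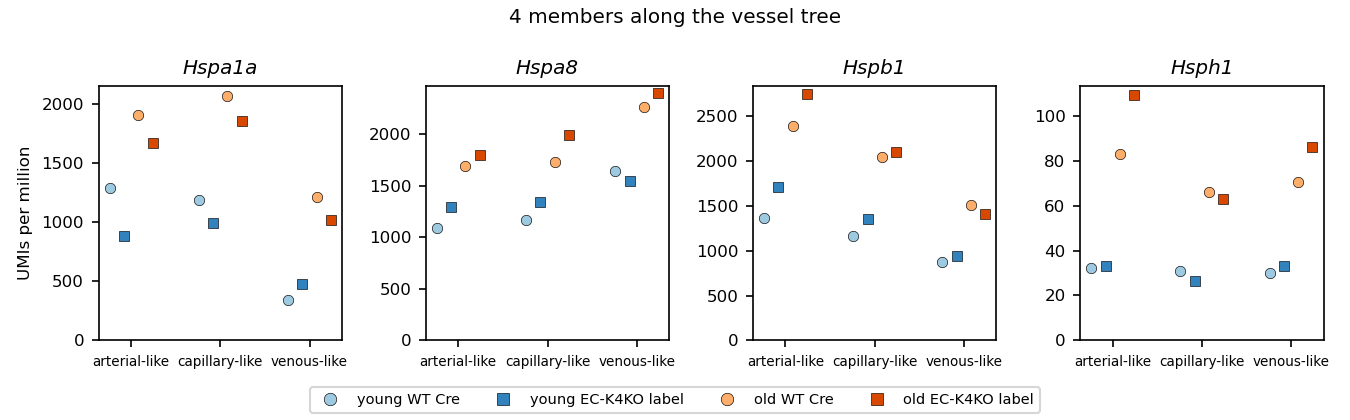
CPM of Hspa1a, Hspa8, Hspb1 and Hsph1 in arterial-like, capillary-like and venous-like cells of the 4 libraries. The old libraries are higher in every zone for all 4 genes, and the venous-like cells are the lowest zone for Hspa1a (342 and 478 CPM when young) and Hspb1 (874 and 937 CPM when young) and the highest for Hspa8.

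Zones differed among themselves as well. Hspa1a in venous-like cells was at 342, 478, 1214 and 1020 CPM, below both other zones in each library. In capillary-like cells it was at 1188, 991, 2064 and 1853 CPM, and in arterial-like cells at 1288, 880, 1909 and 1668 CPM. Hspb1 was highest in arterial-like cells in every library, at 1371 to 2747 CPM, against 874 to 1514 CPM in venous-like ones. Hspa8 ran the other way, with 1543 to 2400 CPM in venous-like and 1084 to 1798 CPM in arterial-like cells. No test was made between zones, since the zones were named from the same cells.

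The genotype label was the other factor of the model, and no member was called in endothelial-like cells, where 2.13% of genes were (1.2% as higher and 0.924% as lower in the libraries labelled EC-K4KO). With edgeR 3 members were under an unadjusted p of 0.05 and with DESeq2 none was called and 1 was under it. The edgeR values were −0.25 ± 0.09 for Hspa1a (adjusted p = 0.288), −0.24 ± 0.09 for Hspa1b (0.281) and 0.21 ± 0.09 for Hspa8 (0.388). The inducible pair was thus lower, and Hspa8 higher, in each library labelled EC-K4KO than in the WT Cre library of its age, without passing the test across genes. Of the other 7 members the changes lay between −0.08 and 0.17.

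The study compared each group with young WT Cre, which these ratios share as their denominator. Each group is 1 library here, so there is no replicate check and the intervals (95%, exact binomial) hold counting error only. For young EC-K4KO the log2 ratio was −0.36 (−0.38 to −0.33) for Hspa1a, −0.19 for Hspa1b, 0.21 for Hspa8 and 0.23 (0.21 to 0.25) for Hspb1, and the median of the 10 members was −0.07 beside −0.04 for all genes. In old WT Cre the median was 0.58 beside −0.18. In old EC-K4KO it was 0.47 beside −0.20, and Hspa1b was the member with the lowest ratio, −0.04 (−0.08 to 0.0004). At 2-fold or more, none of the members was higher in young EC-K4KO (0.256% of genes), while 1 was in old WT Cre (1.72%) and 1 in old EC-K4KO (2.39%), in both cases Hsph1, at 1.17 (1.04 to 1.31) and 1.32 (1.18 to 1.46). Old EC-K4KO set directly against old WT Cre gave a median of 0.004 (all genes −0.02), with Hspa1b at −0.35 (−0.39 to −0.31) and Hspa8 at 0.15 (0.13 to 0.18). None of the members reached 2-fold there, against 0.28% of genes in each direction.

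Microglia-like cells, the resident macrophages of the brain, also had more of most members in the old libraries. The members together took 0.480% and 0.513% of their UMIs when young and 0.513% and 0.503% when old, so the sum overlapped between ages. There were 335 and 586 such cells in the young and 1283 and 765 in the old libraries. With age, edgeR called 7 members higher and 2 lower, where 29% of 11377 genes were called, 16.9% as higher and 12.1% as lower. The fit gave all genes of this class a common spread, so its adjusted p-values are very small. DESeq2 called 5 members higher and none lower (5.33% and 0.958% of genes). With library totals 5 were called higher and 3 lower (7.17% and 36.3% of genes). The split of all called genes then moved from 1918 higher and 1377 lower to 816 higher and 4131 lower, with the median of all genes at −0.35.

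**Figure D3:**
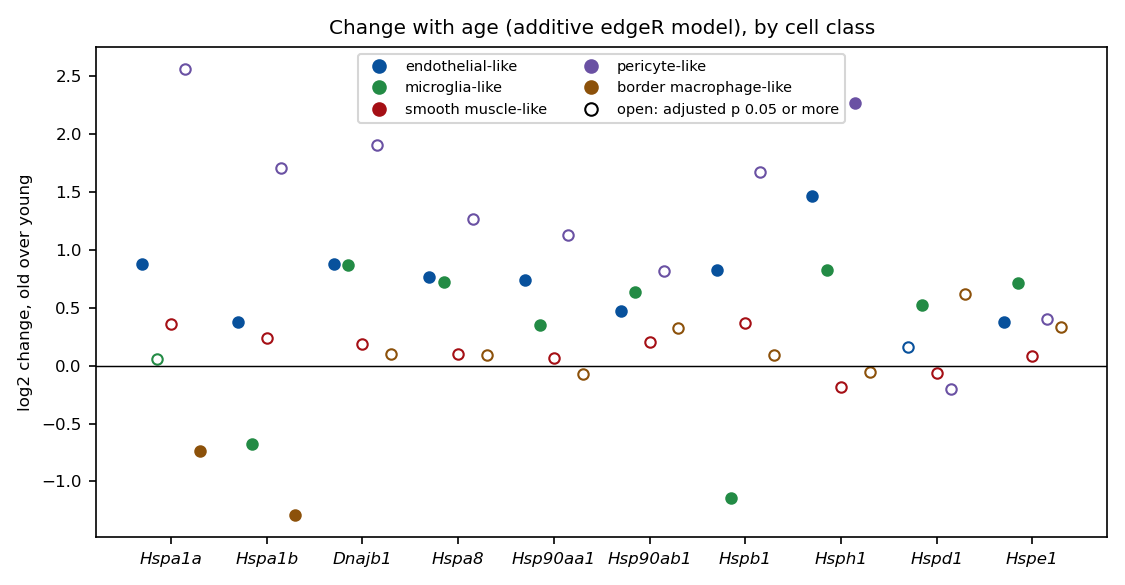
Log2 change with age (old over young libraries, edgeR) of each member in 5 cell classes. Each point is 1 estimate from 2 old against 2 young libraries, drawn without its SE. Filled points passed an adjusted p of 0.05 and open points did not, and the inducible pair and Hspb1 are higher with age in endothelial-like cells but near or below 0 in microglia-like cells.

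Dnajb1 rose by 0.87 ± 0.12 (edgeR adjusted p = 5.3e-12) in microglia-like cells, from 90.2 and 121 CPM to 161 and 146 CPM. Hsph1 was at 35.2 and 46.5 CPM when young and 55.7 and 59.0 CPM when old (0.82 ± 0.14). Hspa8 went from 977 and 961 to 1226 and 1318 CPM (0.73 ± 0.11), and Hspe1 from 273 and 246 to 317 and 355 CPM (0.71 ± 0.11). In these 4 genes the old libraries lay above the young. Hsp90ab1 changed by 0.64 ± 0.12 and Hspd1 by 0.53 ± 0.12, the latter passing in 4 of 6 alternatives. Hsp90aa1 changed by 0.35 ± 0.11, with CPM that overlapped between ages and no call in 3 of 6 alternatives.

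By CPM, 6 members were higher in both old libraries (15% of 7793 genes) and 3 lower in both (60.7%), the latter being the inducible Hsp70 pair and Hspb1. Hspa1a was at 948 and 1038 CPM when young and 917 and 734 CPM when old, with a change of 0.06 ± 0.11 in edgeR (adjusted p = 0.730) that turned to −0.28 (0.0119) with library totals. Hspa1b was at 750 and 960 CPM when young and 484 and 367 CPM when old, and fell by 0.67 ± 0.11 (edgeR adjusted p = 2.0e-08, and 0.266 with DESeq2). Hspb1 was hardly present, at 24.1 and 44.1 CPM when young and 11.3 and 12.7 CPM when old, and its change was −1.14 ± 0.19 (edgeR adjusted p = 3.6e-08, and 0.0625 with DESeq2). After thinning, 0.857 to 2.73% of microglia-like cells had a UMI of Hspb1 (median depth 4869 to 5625 UMIs), against 64.5 to 78.9% of endothelial-like cells, and astrocyte-like cells were at 9.61 to 28.7 CPM. Endothelial-like cells were 38.8% and 45.3% of the kept cells of the old libraries, a lower share than in both young ones. The part of free RNA in these counts was not tested. The microglia-like clusters also differed by age. One of 1148 cells was 92.4% from old libraries and held 184 CPM of Hspa1b, and another of 822 cells was 32.4% from them and held 1119 CPM. Yet another, of 909 cells, was 70.3% from old libraries and held 834 CPM.

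The difference between classes was then tested itself, in fits with library as a block and a term for age by class that were added after the data had been seen. Between endothelial-like and microglia-like cells 4 members were called (7.62% of 14847 genes, 3.22% in the positive and 4.4% in the negative direction), all with a larger age change in endothelial-like cells. These were Hspb1 by 1.99 (edgeR adjusted p = 1.1e-04), Hspa1b by 1.02 (8.7e-04), Hspa1a by 0.79 (0.00527) and Hsph1 by 0.63 (0.0348). For Hspa8 the difference was −0.0003 and for Dnajb1 −0.03, neither of which passed. Smooth muscle-like cells, the contractile cells of arterioles, gave 6 members with a larger age change in endothelial-like cells (3.92% of 14850 genes, 3.06% positive and 0.862% negative), led by Hsph1 at 1.71 (edgeR adjusted p = 1.7e-18). That count fell to 2 with DESeq2 (0.848% of genes called) and to 3 with library totals (2.86%). It fell to 1, which was Hsph1, at the limit of 5% mitochondrial UMIs (1.09%). At that limit smooth muscle-like cells held 280248 of 2521522 UMIs in young WT Cre and 1164465 of 10611923 in young EC-K4KO, against 1039566 of 2931326 in old WT Cre and 374979 of 1432290 in old EC-K4KO, so that a smaller part was left in the young libraries. The part of this loss in the comparison by age was not tested.

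Smooth muscle-like cells numbered 269, 1055, 429 and 239, and on their own no member was called there with age (1.44% of 10323 genes). Hspb1 was the member under an unadjusted p of 0.05 in edgeR, at 1519 and 1710 CPM when young and 2008 and 2142 CPM when old (0.37, adjusted p = 0.155). DESeq2 called none either, with 1 under an unadjusted p of 0.05. The median change of the 10 members was 0.14 and moved with the choice of cells. At the limit of 5% mitochondrial UMIs it was 0.40, with all 10 above 0, 4 under an unadjusted p of 0.05 and none called. With classes assigned cell by cell it was −0.02, with 5 above 0, 4 under an unadjusted p of 0.05 and 1 called lower (2.18% of 9772 genes). Hsph1 was at 87.2, 82.3, 62.4 and 88.0 CPM, with no separation of the ages, and 3 members lay higher in both old libraries than in both young ones (23% of 7628 genes; 25.6% lay lower). The genotype label gave no calls in these cells (0.0775% of genes, 0.0387% in each direction, none under an unadjusted p of 0.05) or in microglia-like cells (1.55%, 1 under it, which was Hspb1). DESeq2 called none in either class. With classes assigned cell by cell, Hspa1a and Hspa1b were called lower with the label in smooth muscle-like cells (0.174% of 9772 genes as lower).

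Pericyte-like cells, the mural cells of capillaries, numbered 215, 285, 228 and 132. Their members together took 0.372% and 0.540% of UMIs in the young libraries and 1.21% and 1.08% in the old ones. Hspa1a was at 415 and 969 CPM when young and 3745 and 3043 CPM when old, and 9 members were higher in both old libraries (11.8% of 8888 genes), Hspd1 being the one that was lower in both (31.6%). An age fit in this class, added after the data had been seen, called only Hsph1 (0.071% of 8450 genes), which went from 28.2 and 35.4 CPM to 151 and 125 CPM (2.27, edgeR adjusted p = 0.0318). DESeq2 also called 1 member (0.0592% of genes), but not Hsph1 (adjusted p = 0.112). Hspa1a, at 2.56, had an adjusted p of 0.190. With classes assigned cell by cell, 7 members were called (2.75% of genes). The immediate early and dissociation genes moved along, from 6391 and 17364 CPM when young to 26830 and 19183 CPM when old, and their part was not tested.

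Border macrophage-like cells, which line vessels and meninges, went the other way for the inducible pair. Hspa1a was at 1020 and 1073 CPM when young and 579 and 589 CPM when old, and Hspa1b at 681 and 604 CPM when young and 305 and 186 CPM when old. The old libraries were below the young in both genes. These were the 2 members called with age in a fit added after the data had been seen (3.6% of 6481 genes, 1.33% as lower), at −0.74 (edgeR adjusted p = 9.9e-04) and −1.29 (3.1e-09). The class held 71, 132, 100 and 50 cells, and DESeq2 called 1 of the 2 (0.293% of genes). Assigning classes cell by cell left 8 to 15 cells a library and 864 genes to test, too few to bear on these calls. The immediate early and dissociation genes were also lower when old in this class, at 13328 and 14656 CPM when young and 12295 and 11241 CPM when old, and their part was not tested. Over the 10 members, 3 were higher in both old libraries (14.6% of 7626 genes) and 4 lower in both (29.2%). In astrocyte-like cells, of which there were 118 to 254 a library, none was higher in both (18.4% of 9259 genes) and 2 were lower in both (17.8%), and the median log2 ratio of old to young was −0.22 for WT Cre and −0.15 for EC-K4KO.

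**Figure D4:**
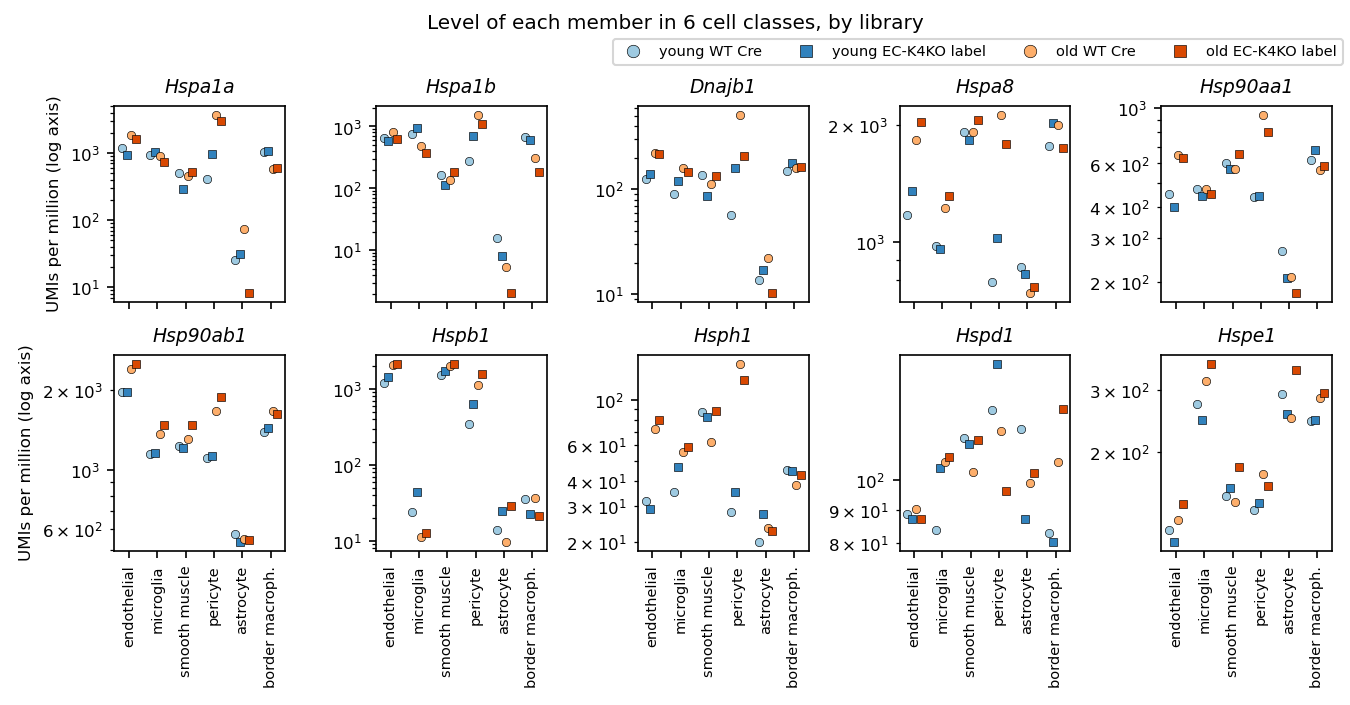
CPM of each member (log axis) in 6 cell classes, with 1 point per library. Hspb1 falls into high classes (endothelial-like, smooth muscle-like and pericyte-like, with means of 926 to 1845 CPM) and low ones (means of 19.3 to 29.2 CPM), and the inducible Hsp70 genes are lowest in astrocyte-like cells.

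Across these 6 classes Hspb1 split into high and low ones. It averaged 1845 CPM over the libraries in smooth muscle-like cells (SD 282, n = 4), 1703 (SD 458) in endothelial-like and 926 (SD 549) in pericyte-like cells, whose ranges over libraries overlap from each to the next. Border macrophage-like (29.2 CPM), microglia-like (23.1) and astrocyte-like cells (19.3) overlapped among themselves and lay far below. In the fit between classes, with library as a block, Hspb1 was 6.13 ± 0.40 higher on the log2 scale in endothelial-like than in microglia-like cells (edgeR adjusted p = 3.4e-07) and 0.42 ± 0.13 lower than in smooth muscle-like cells (0.0106), and the latter passed in 7 of 10 alternatives. It did not pass with library totals (−0.14, edgeR adjusted p = 0.138), at the 5% mitochondrial limit (−0.26, 0.114) or without young WT Cre (−0.34, 0.0750).

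The inducible pair was highest on average in pericyte-like cells, where Hspa1a ran from 415 to 3745 CPM and overlapped endothelial-like cells (924 to 1857 CPM), which overlapped microglia-like cells (734 to 1038 CPM). Border macrophage-like cells (579 to 1073 CPM) overlapped the latter. Smooth muscle-like cells at 289 to 524 CPM lay below these classes without overlap, apart from the lowest pericyte-like library, and astrocyte-like cells at 8.21 to 72.8 CPM lay below all. Endothelial-like cells exceeded smooth muscle-like cells by 1.37 ± 0.14 for Hspa1a (edgeR adjusted p = 3.5e-06) and 1.89 ± 0.13 for Hspa1b (7.1e-08). Against microglia-like cells Hspa1a was 0.34 ± 0.19 (0.144) and Hspa1b −0.09 ± 0.21 (0.720), neither of which passed.

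Among the 6 classes with 50 or more cells in every library, Hsp90ab1 was highest in endothelial-like cells, at 1972 to 2521 CPM, without overlap with the 1388 to 1671 CPM of border macrophage-like cells that came next. It was higher there than in microglia-like cells by 0.54 ± 0.15 (edgeR adjusted p = 0.00856) and than in smooth muscle-like cells by 0.48 ± 0.11 (0.00245). The mitochondrial pair had its lowest mean in endothelial-like cells, where Hspd1 was at 87.1 to 90.4 CPM and Hspe1 at 111 to 143 CPM. Hspe1 was 1.48 ± 0.12 lower than in microglia-like cells (edgeR adjusted p = 2.4e-06), whose 246 to 355 CPM overlapped astrocyte-like and border macrophage-like cells. Against smooth muscle-like cells Hspe1 and Hspd1 were each lower by 0.62, Hsph1 by 1.05, Hspa8 by 0.59 and Hsp90aa1 by 0.48. Of 10 alternatives Hsp90aa1 passed in 6, Hsph1 and Hspa8 in 9 each, and Hspe1 and Hspd1 in all. The change of Hsph1 ran from −1.40 to −0.47 over them. In all, 2 members were called higher and 2 lower than in microglia-like cells, and 3 higher and 6 lower than in smooth muscle-like cells, where 68.6% of genes were called in each of these fits (34.9% as higher and 33.7% as lower than in microglia-like cells, and 36.4% and 32.2% against smooth muscle-like cells). Against smooth muscle-like cells 4 were higher and 2 lower at the limit of 5% mitochondrial UMIs (28.7% and 23.2% of genes). They were 4 and 4 with library totals (49% and 24.6%) and without young WT Cre (33.8% and 30.8%). Against microglia-like cells 5 were higher and 1 lower with library totals (43% and 27.7% of genes). With no filter on low counts it was also 5 and 1 (21.9% and 17.4%).

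Other genes of the chaperone network were read from lists of related genes. With age in endothelial-like cells, 9 of the 16 cochaperones and heat shock factor targets were called higher and none lower, with a median change of 0.30. Over all genes the share called higher was 12.5% and the share called lower 8.47%, against which the counts of each list below can be read. Hspa4l, a relative of Hsph1, was at 16.4 and 20.2 CPM when young and 23.6 and 31.2 CPM when old (0.73 ± 0.10). Dnaja1, a J-domain partner of Hspa8, went from 398 and 385 to 581 and 561 CPM (0.69 ± 0.08). In both genes the old libraries were above the young.

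Of 18 other cytosolic chaperones tested among 19 listed, 3 were called higher and none lower (median 0.10), led by Hspa2 at 22.0 and 20.7 CPM when young and 34.9 and 36.5 CPM when old (0.89 ± 0.09). The others were St13 (0.26), a cofactor of Hsp70, and the J-domain protein Dnajb6 (0.24). The TRiC chaperonin, which folds actin and tubulin, had 1 of its 8 subunits called, Cct2 at 0.24, with a median of 0.14. Among 13 chaperones of the endoplasmic reticulum 3 were called higher and 1 lower (median 0.10). Hspa5 (BiP), the Hsp70 of that compartment, was at 332 and 337 CPM when young and 540 and 615 CPM when old (0.93 ± 0.08), and its partner Dnajb9 went from 142 and 159 to 224 and 223 CPM (0.73 ± 0.08). Dnajc3 changed by 0.24 and the disulfide isomerase Pdia4 by −0.27. None of the 7 mitochondrial chaperones was called higher and 1 was called lower, Clpx at −0.27 (median −0.13). The signs for the other cytosolic, TRiC and endoplasmic reticulum lists depend on the scaling. By CPM ratios to young WT Cre, whose median over all genes was −0.18 for old WT Cre and −0.20 for old EC-K4KO, the lists had medians of 0.20 and 0.26 (cochaperones), −0.09 and −0.14 (other cytosolic), −0.04 and −0.0007 (TRiC), −0.12 and 0.05 (endoplasmic reticulum) and −0.29 and −0.47 (mitochondrial).

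In microglia-like cells, where 16.9% of all genes were called higher and 12.1% lower with one spread for all genes, 9 of 15 tested cochaperones and heat shock factor targets were called higher with age, led by Dnaja1 (0.68), Bag3 (0.58) and Dnajb4 (0.48), as were 6 of 17 other cytosolic chaperones, led by Hspa2 (1.04), Bag1 (0.66) and Cdc37 (0.56). Of the TRiC subunits 6 of 8 were called higher, with Cct5 and Cct8 at 0.60 and Tcp1 at 0.52, and of the mitochondrial chaperones 2 of 7, Hspa9 (0.53) and Grpel1 (0.40). None of these 4 lists had a member called lower. In the endoplasmic reticulum Hspa5 (0.96) and Dnajb9 (0.83) were called higher and Pdia4 (−0.62) and Pdia3 (−0.42) lower. Of the immediate early and dissociation genes 6 were called higher, led by Atf3 (0.90), Ier3 (0.83) and Nr4a1 (0.70), and Jun (−0.48) and Btg2 (−0.34) lower. In smooth muscle-like cells, 1 immediate early gene was called higher and no gene of the other lists was. The genotype label called none of the chaperone genes in any of these classes. Of the immediate early genes it called Klf6 in endothelial-like cells (0.60 ± 0.10) and Fosb (−0.41) and Socs3 (−0.37) in microglia-like cells.

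The genes whose pattern was most like that of the stress-inducible members were looked for over the 24 sums of 6 classes and 4 libraries, by Pearson's r of log2(CPM + 1) with the summed CPM of Hspa1a, Hspa1b and Dnajb1 on the same scale, among 3546 genes. They were Akt1 (r = 0.914), BC028528 and Rela (0.913), Zfp36 (0.913), Cbfa2t3 (0.913), Akap13 (0.911), H3f3b (0.905) and Jun (0.905). These sums share libraries and depth, so r is a description. In endothelial-like cells themselves Akt1 was at 90.1, 90.5, 80.0 and 76.1 CPM and did not rise in the old libraries, while Zfp36 was at 735, 1156, 1434 and 1204 CPM. Among the members, Hspa1a and Hspa1b had an r of 0.97 over the 24 sums and of 0.69 to 0.75 over single endothelial-like cells of a library, whereas Hspd1 and Hspe1 had an r of −0.002 over the sums.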

How the data were processed

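Each deposited matrix holds raw UMI counts per gene and cell barcode. The authors made these counts with Cell Ranger (6.0.2 in the file headers), and the lowest barcode held 500 UMIs. Per the labels, the processing notes also name Seurat and the mm10 (GRCm38) build. Here barcodes under 500 genes, under 1000 UMIs or above 10% mitochondrial UMIs were left out. Likely doublets (0.8% per 1000 cells) were then removed. They were scored by the share of simulated sums of cell pairs of the same library among each cell's nearest neighbours. Libraries held 30655769 to 88812581 UMIs. Cells were clustered with leidenalg 0.10.2 (2000 variable genes, 30 components, 20 neighbours, Leiden resolution 1). A marker counted for a cluster at 20 CPM or more and at 25% or more of its highest cluster. Clusters were named "X-like" where at least 3 markers and 50% of a type's list counted and no other type qualified. Clusters whose leading genes favoured another type, and likely doublet clusters, were left unnamed. Of the 34 clusters 6 stayed unnamed.

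UMIs were summed per library and class. edgeR 4.0.16 (TMM, quasi-likelihood, Benjamini-Hochberg over all genes tested, threshold 0.05) fitted age and genotype label over the 4 sums, or class with library as a block over 8 sums; DESeq2 1.42.0 was an alternative, as were other scalings, no filter, at most 5% mitochondrial UMIs and classes assigned cell by cell. An SE is the absolute log2 change divided by the square root of F. With 1 library a group, pairs of libraries were compared by ratios (0.5 UMIs added) with intervals for counting error only. Recovery was tested on simulated counts.

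The text names all 10 members, up to 3 genes per list and direction by size of change among those called, and the 8 genes most like the inducible members. The members and lists were chosen with earlier results of these data known. Some genes that this rule names are not reported here.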

Additional observations from a re-analysis of the deposited data

Results flagged for a closer look

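The age change of 4 members differed between endothelial-like and microglia-like cells in the fit of both classes (edgeR, library as a block, 2 residual degrees of freedom). The difference, endothelial-like minus microglia-like, was 0.79 for Hspa1a, 1.02 for Hspa1b, 1.99 for Hspb1 and 0.63 for Hsph1 on the log2 scale. With DESeq2 the difference of Hsph1 did not pass (adjusted p = 0.242). The Hspb1 counts of microglia-like cells were low, at 11.3 to 44.1 CPM, and lower in the old libraries. The part of free RNA in them was not tested.

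Against smooth muscle-like cells the age change differed for 6 members. It was 0.56 for Hspa1a, 0.70 for Dnajb1, 0.71 for Hspa8, 0.71 for Hsp90aa1, 0.49 for Hspb1 and 1.71 for Hsph1, each larger in endothelial-like cells. At the limit of 5% mitochondrial UMIs 1 of these 6 differences, that of Hsph1, still passed (1.09% of genes did). Smooth muscle-like cells then kept a smaller part of their UMIs in the young libraries (280248 of 2521522 and 1164465 of 10611923) than in the old ones (1039566 of 2931326 and 374979 of 1432290). The summed level of the immediate early and dissociation genes was higher in both old libraries in endothelial-like cells. In smooth muscle-like cells it stood at 28876 and 24657 CPM when young and 22025 and 24698 CPM when old. The part of these genes was not tested.

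For Hsph1 and Hspe1 the libraries labelled EC-K4KO lay on opposite sides of the WT Cre library at the 2 ages with counting intervals that left out 0 at both, a difference that was not tested. The log2 ratio of Hsph1 was −0.14 in young and 0.15 in old endothelial-like cells, and that of Hspe1 was −0.11 in young and 0.15 in old ones. Dnajb1 (0.16 and −0.04) and Hsp90ab1 (−0.0015 and 0.06) also had opposite signs, each with an interval that held 0 at one age. In capillary-like cells alone the old ratio of Hsph1 was −0.07.

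Groups of 1 library cannot show a sample that stands apart from its group, so none was looked for.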

How the results depend on the processing

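In endothelial-like cells, 7 members (Hspa1a, Dnajb1, Hspa8, Hsp90aa1, Hsp90ab1, Hspb1 and Hsph1) were called higher with age under all 7 alternatives. Of 1174 recomputed values, 924 kept their direction and their side of the threshold or moved by less than their error, and 27 turned direction; the causes were not tested. DESeq2 called 5 members higher with age in microglia-like cells (6.28% of genes called, 5.33% as higher). With classes assigned cell by cell, 1 member was called lower with age in smooth muscle-like cells (2.18% of genes). The genotype label there called 2 members lower, Hspa1a and Hspa1b (0.174% of genes). With age, 7 were called in pericyte-like cells (2.75%) and 0 in border macrophage-like cells (8 to 15 cells a library, 864 genes tested). In border macrophage-like cells DESeq2 and the 5% mitochondrial limit called 1 each (0.293% and 0.206% of genes). For the difference of the age change between endothelial-like and smooth muscle-like cells, 1 member was called at that limit (1.09% of genes). DESeq2 called 2 (0.848%), and 3 passed with library totals (2.86%).

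The genotype change in endothelial-like cells turned to −0.048 for Hsph1 cell by cell, and in capillary-like cells to −0.13 for Hsph1, 0.030 for Hspd1 and −0.039 for Hspe1. In microglia-like cells the age change of Hspa1a turned to −0.28 with library totals and −0.014 cell by cell, and the genotype change of Hspa1b to 0.0075 cell by cell. In smooth muscle-like cells the age changes turned to −0.17 for Hspa1a, −0.49 for Hspa1b and −0.050 for Hspe1 cell by cell, and to 0.40 for Hsph1 and 0.036 for Hspd1 at the 5% limit, where the genotype changes turned to 0.12 for Hspa1a, 0.92 for Hspa1b, 0.29 for Dnajb1 and −0.14 for Hspa8. Between endothelial-like and microglia-like cells Hspa1b turned to 0.15 with library totals and 0.057 with no filter, Hsp90aa1 to 0.18, 0.091 and, at the 5% limit, 0.0092, and Hsph1 to 0.017 with library totals. Leaving out 1 library at a time gave −0.28 to 0.19 for Hspa1b and −0.13 to 0.031 for Hsp90aa1, the positive values being those without young EC-K4KO. The call of Hsp90ab1 was lost without young WT Cre (adjusted p = 0.0525) and that of Hspd1 without old EC-K4KO.

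The median ratio of the members to young WT Cre was 0.75 (size factors) or 0.72 (TMM) for old WT Cre and 0.65, 0.61 or, with cells weighted equally, 0.60 for old EC-K4KO. Old EC-K4KO over old WT Cre gave a median of −0.0036 at the 5% limit and −0.013 in capillary-like cells, where Hsph1 was −0.071. No paired analysis was possible because each group holds 1 library (this concerns age and genotype label, whereas the fits between classes kept the library as a block). Depth limits the small classes most, since the lowest Hsph1 count in pericyte-like cells was 24 UMIs.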

Other observations

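Some classes had under 50 cells in a library and entered no comparison. Ependymal-like cells, which line the ventricles, carried the members at 14117 and 16234 CPM together in young and 11858 and 15079 CPM in old libraries (20 to 110 cells), which is above the endothelial-like cells of every library. Dnajb1 stood there at 417 and 977 CPM when young and 644 and 1015 CPM when old, and Hsph1 at 346 to 441 CPM. Hsp90ab1 was at 3190 to 4171 CPM in ependymal-like cells, also above the endothelial-like ones. It was at 2222 to 3480 CPM in oligodendrocyte-like and 1645 to 2379 CPM in T and NK-like cells, both overlapping the endothelial-like range. Neuron-like cells held Hsph1 at 300 to 353 CPM.

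Oligodendrocyte-like cells (40 to 318 cells a library) had Hspa1a at 214 and 678 CPM in young and 1559 and 881 CPM in old libraries, and Dnajb1 at 83.2 and 476 CPM when young and 772 and 558 CPM when old. For both genes the old libraries were above the young ones. Hspb1 was at 4.77 to 15.1 CPM in these cells and at 865 to 1560 CPM in fibroblast-like cells. Monocyte-like cells went the other way in sum, with 7600 and 6284 CPM of the members when young and 5083 and 3844 CPM when old.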
